A study of Mus musculus with 2 samples.

Results

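Open chromatin was described around 9 genes known as targets of the glucocorticoid receptor, Fkbp5, Tsc22d3, Zbtb16, Sgk1, Dusp1, Klf9, Mt1, Mt2 and Errfi1. They were taken by gene name from the GENCODE M21 basic annotation of the mouse assembly mm10, where all 9 were found, among 21911 protein-coding genes. DNase-seq reads out where the enzyme DNase I can cut chromatin. The tissue was whole adrenal gland from male animals of the strain B6CASTF1/J, offspring of a C57BL/6J by CAST/EiJ cross, aged 8 to 10 months per the labels. There was 1 group of 2 libraries, called pool 1 and pool 2 here (biological replicates 1 and 2), and each library came from a pool of 6 gland biosamples. The labels name no treatment and no steroid level, and 1 donor identifier stands for both pools.

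Glucocorticoids are made in the adrenal cortex, and they act through a nuclear receptor that moves to chromatin once it has bound hormone. There it can bind the glucocorticoid response element (GRE), an inverted repeat of a short sequence with a spacer of 3 bases, a sequence that related steroid receptors can use too. The 9 genes are used in many tissues as readouts of this response. Their products include a chaperone that dampens the receptor (Fkbp5), a leucine zipper protein of the anti-inflammatory response (Tsc22d3, also called GILZ), transcription factors (Zbtb16, Klf9), regulators of kinase signalling (Dusp1, Errfi1), a kinase that controls ion transport (Sgk1) and metal-binding metallothioneins (Mt1, Mt2).

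The gene records on the minus strand were Fkbp5 (chr17:28399094-28517527), Tsc22d3 (chrX:140539528-140600659), Zbtb16 (chr9:48654297-48836222) and Dusp1 (chr17:26505590-26562128). Those on the plus strand were Sgk1 (chr10:21882184-21999903), Klf9 (chr19:23141226-23168134), Mt1 (chr8:94179082-94180327), Mt2 (chr8:94172664-94173568) and Errfi1 (chr4:150853919-150868892). A window from 50 kb before to 50 kb after each record was examined. Peaks of the 2 pools that overlapped were merged into a shared region, and 160 of the 96584 shared regions of the genome fell into these windows. A GRE match was GNACA, any 3 bases and TGTNC in a row (N is any base), a pattern that reads the same on both strands, anywhere in the mm10 sequence of a region. Matches lay in 15 of the 160 regions (9.38%), against 1.28% of all shared regions. The following sites, on the plus strand of mm10 with the GRE match in capitals, show the matches on which the results below turn. Coordinates are those of the 13 bases in capitals. The cross carries a CAST/EiJ genome as well, whose sequence was not used here.
Fkbp5 intron, chr17:28420322-28420334: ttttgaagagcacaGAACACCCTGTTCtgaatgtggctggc
Fkbp5 upstream, chr17:28523178-28523190: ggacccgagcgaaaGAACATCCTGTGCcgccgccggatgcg
Zbtb16 intron, chr9:48737602-48737614: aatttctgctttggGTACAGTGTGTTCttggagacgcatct
Zbtb16 intron, chr9:48740264-48740276: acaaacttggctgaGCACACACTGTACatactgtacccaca
Zbtb16 intron, chr9:48723704-48723716: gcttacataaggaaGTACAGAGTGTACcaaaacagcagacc
Zbtb16 intron, chr9:48736508-48736520: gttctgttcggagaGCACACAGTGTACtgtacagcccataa
Tsc22d3 downstream, chrX:140513555-140513567: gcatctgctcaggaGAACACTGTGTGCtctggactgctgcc
Tsc22d3 downstream, chrX:140505966-140505978: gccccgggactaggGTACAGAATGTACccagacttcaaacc
Dusp1 intron, chr17:26535329-26535341: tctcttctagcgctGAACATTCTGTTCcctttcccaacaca
Klf9 upstream, chr19:23135093-23135105: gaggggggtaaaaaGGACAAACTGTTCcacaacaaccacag
Mt1 promoter, chr8:94178995-94179007: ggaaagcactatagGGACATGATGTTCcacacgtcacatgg
Sgk1 promoter, peak of pool 1 alone, chr10:21993702-21993714: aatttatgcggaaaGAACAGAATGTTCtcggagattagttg

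The Fkbp5 intron site had 0 mismatches to the full palindrome, AGAACA and TGTTCT around 3 free bases, over its 12 fixed bases, as did the Sgk1 site. The Tsc22d3 site at chrX:140513555-140513567 had 1. Of the 16 matches in shared regions of the windows, 7 had 2 mismatches, 4 had 3 and 3 had 4.

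The deposited main lists held 117371 peaks in pool 1 and 146307 in pool 2, with 272595 and 319381 footprints, short protected stretches inside open regions. Library depth is not stated. The authors' signal of a peak came in whole steps (within 0.05 of a step), and regions of the windows held a median of 186 and 197 such steps, with at least 40 and 46. Promoter peaks in both pools were present at 6 of 7 cortex and 6 of 6 medulla marker genes. For other cell types, such a peak was present at 2 of 3 endothelium, 0 of 3 macrophage, 1 of 3 adipocyte, 1 of 3 hepatocyte and 0 of 3 kidney markers. In a whole gland, fewer cells of a type and less accessible chromatin per cell cannot be told apart. With 1 library a pool, a difference between pools, animals or libraries cannot be told apart either, and values are given without a test.

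Promoters of all 9 genes were open in both pools, as were 61.9% of protein-coding promoters. A promoter here is 1 kb on either side of any annotated transcription start site (TSS), and the value is the strongest peak there, in units of the authors' signal. Klf9, a zinc finger repressor gene on chromosome 19, had the strongest promoter peak of the set, with 8.05 in pool 1 and 9.51 in pool 2. Fkbp5 on chromosome 17 had 7.74 and 9.49. Both stood above 92% of protein-coding promoters: the percentiles of Fkbp5 were 92.3 and 92.3, those of Klf9 93 and 92.4. Dusp1, whose product switches off mitogen-activated protein kinases, had 7.04 and 7.92, and Sgk1 had 5.82 and 7.67.

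The other promoters were of middle strength. Mt1 had 5.03 and 6.57, and its neighbour Mt2 on chromosome 8 had 2.62 and 3.74. Errfi1, a feedback inhibitor gene of the EGF receptor, had 3.23 and 5.56, the largest relative difference between pools among the 9. The region with this signal is centred at -72 bp from an Errfi1 start and at -52 bp from a start of 1700045H11Rik (negative is upstream). Its signal is thus not that of Errfi1 alone. Tsc22d3 on the X chromosome, present in 1 copy in males, had 2.67 and 3.01. Zbtb16, whose product is also called PLZF, had 2.44 and 2.95. These last 2 were near the median of 3.0 in pool 1 and below that of 4.07 in pool 2 over the 13562 genes with a promoter peak in both pools. Every one of the 9 promoters had more signal in pool 2, and so did most regions of the genome, since the median log2 ratio of pool 2 to pool 1 over all shared regions was 0.35. After this median was subtracted, the promoters of the 9 genes ranged from -0.18 (Dusp1 and Tsc22d3) to 0.44 (Errfi1).

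**Figure D1:**
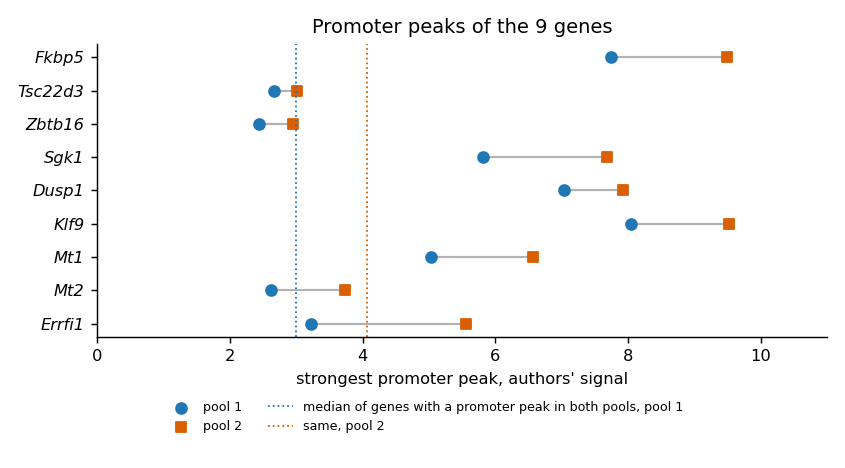
Authors' signal of the strongest promoter peak of each gene (horizontal axis) in pool 1 (circles) and pool 2 (squares), with dotted lines at the median of the 13562 protein-coding genes that had a promoter peak in both pools. Klf9, Fkbp5, Dusp1, Sgk1 and Mt1 lie to the right of both medians, and Zbtb16 and Tsc22d3 have the lowest values in pool 2.

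Not every annotated start of these genes was open. At Fkbp5, 3 of 5 start sites had a peak within 1 kb in both pools. The strongest signal was at the inner starts at 28486093 and 28486149, while the outermost start at 28517524 had 3.10 and 3.53 within 1 kb. Of the 3 Tsc22d3 starts, the one at 140543187, nearest the end of the gene record, had the 2.67 and 3.01 given above, and the outermost at 140600659 had 0.966 and 1.69. The Tsc22d3 start at 140548338 had no peak in either pool. Sgk1 had 4 of 5 starts open. The start with the most signal, at 21994666, lies near the far end of the gene record, and the outermost at 21882184 had a peak in pool 2 alone (0.464). The long record of Dusp1, 56.5 kb, comes from 1 transcript that starts at 26562128. The signal within 1 kb of this start was 2.91 and 4.07, but no peak covered the start itself. That signal came from a region centred 18 bp from an Ergic1 start and 657 bp from the Dusp1 start.

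Every window held more shared regions per 100 kb than the median protein-coding gene. Over the 9 genes the median was 11.8 regions per 100 kb, against 6.20 over all 21911. Similar medians were found for 20 other targets of the receptor (11.7) and 8 genes of receptors, chaperones and hormone-converting enzymes (10.5). Cortex markers had 14.1, and the other marker lists ran from 2.35 (macrophage) to 9.90 (adipocyte). Dusp1 was the densest of the 9, with 28 shared regions, or 17.9 per 100 kb, above 97.5% of genes. Errfi1 followed with 13 (15 regions), then Fkbp5 with 12.8 (28 regions). Mt1 and Mt2 had 11.9 and 10.9, from 12 and 11 regions, of which their windows share 11. Tsc22d3 had 11.8 (19 regions) and Sgk1 11 (24 regions). Klf9 had 9.46 (12 regions). Zbtb16, the longest gene at 182 kb, was the sparsest with 7.80 (22 regions), above 62.6% of genes. A window holds neighbouring genes too, so a region in it is not assigned to the gene named.

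Of the 160 regions, 48 lay within 1 kb of a TSS of any gene, 64 in introns, 4 in exons and 44 between genes. Both pools listed 110 of them in their shorter peak lists as well. Peaks of 1 pool alone numbered 15 of 180 in pool 1 (8.33%, against 15.4% of all peaks of that pool), with a median signal of 0.654. In pool 2 they numbered 68 of 236 (28.8%, against 32.1%), with a median signal of 0.608. Cleavage passed a false discovery rate (FDR) of 0.05 over 6.71% of the Dusp1 window in pool 1 and 10.5% in pool 2, the highest of the 9. The lowest were Sgk1 with 3.17% and 3.47%, and the shares over the genome were 1.36% and 1.81%. Footprints numbered 100 and 125 in the Dusp1 window, 83 and 121 around Fkbp5, and 87 and 82 around Zbtb16. Tsc22d3 had 53 and 86, Sgk1 58 and 65, Klf9 58 and 63, Errfi1 54 and 54, Mt1 43 and 49, and Mt2 42 and 48. Of 536 footprints in pool 1 and 645 in pool 2, overlapping pairs gave 281 shared ones. Of the footprints of pool 1 in the windows 57.6% overlapped one of pool 2, against 51.1% over the genome, and of those of pool 2 46.2% overlapped one of pool 1, against 42.6%. Zbtb16 was the only window with fewer footprints in pool 2 than in pool 1.

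**Figure D2:**
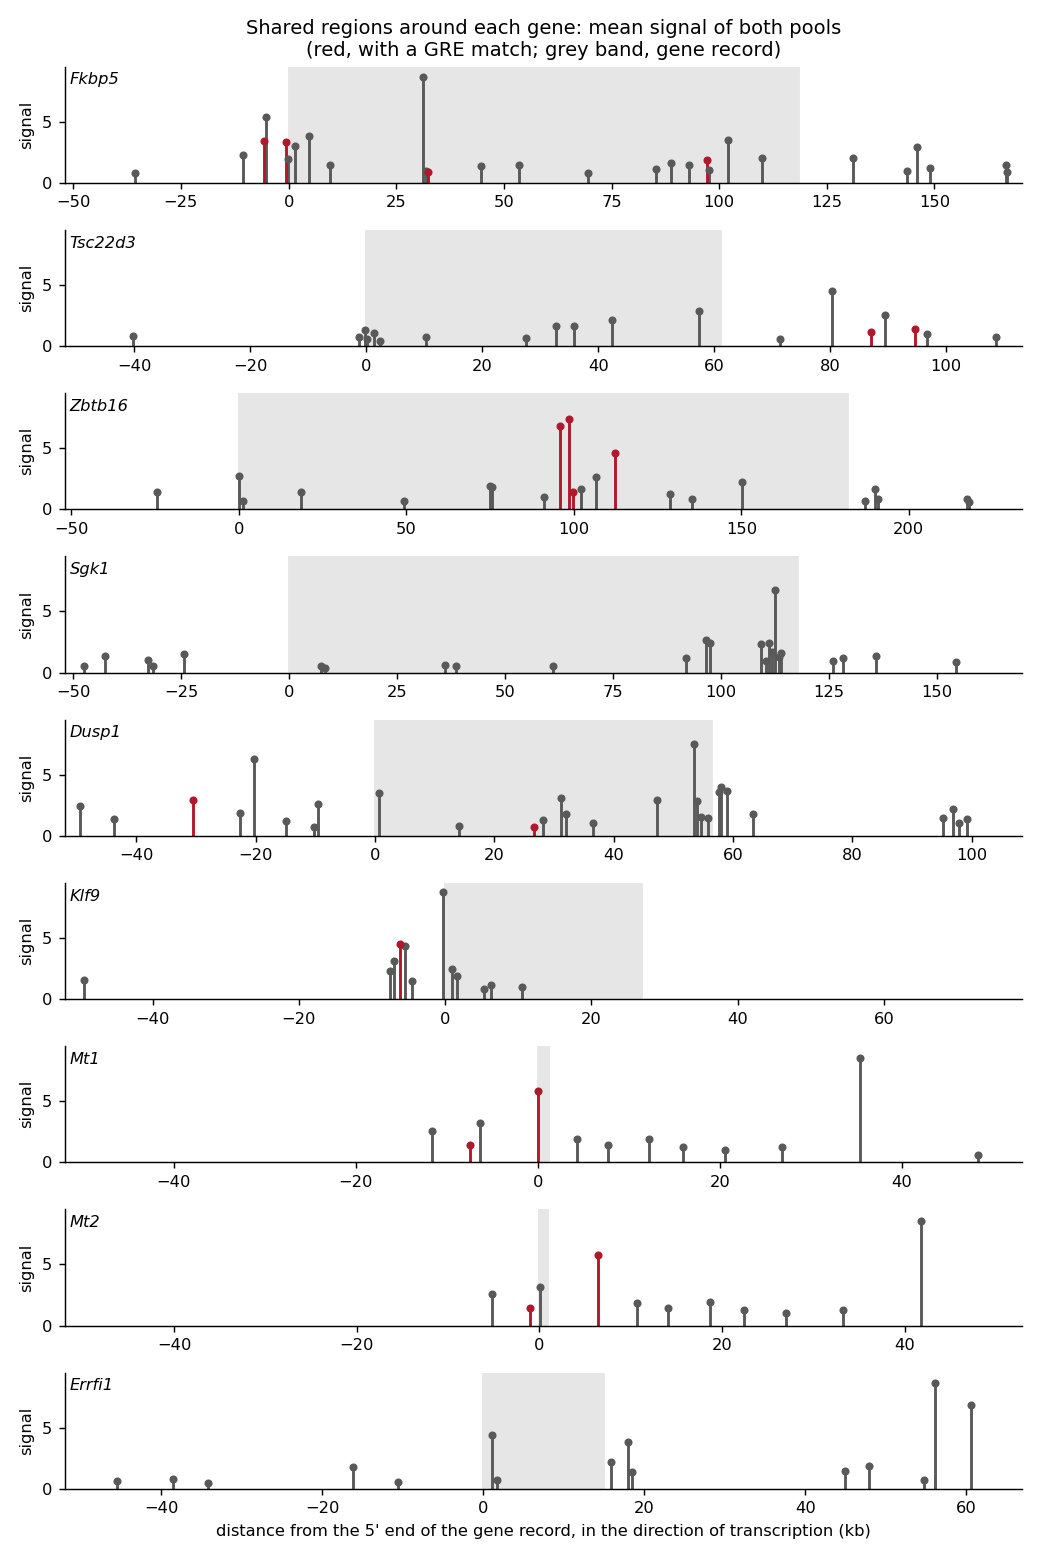
Shared regions in each window, by distance from the 5′ end of the gene record in the direction of transcription (horizontal axis, kb) and by the mean of the authors' signal in both pools (vertical axis). Red marks regions with a GRE match and the grey band is the gene record. At Zbtb16 the tallest marks are red and lie about halfway along the gene, while at Sgk1 and Errfi1 no mark is red.

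The strongest shared region over 1 kb from every TSS differed in place and strength from gene to gene. In Zbtb16 it lay in an intron, 98264 bp past the nearest Zbtb16 start, with 8.34 in pool 1 and 6.39 in pool 2. This was over 3 times the signal of the gene's own promoter in pool 1 (2.44), and a smaller multiple in pool 2, where the promoter had 2.95. For Dusp1 it lay at -20353 bp from the outermost start (negative is upstream), in an intron of Ergic1, with 6.55 and 6.00. Downstream of Tsc22d3 it lay 22796 bp past a start, with 4.03 and 5.0. In an Fkbp5 intron it had 4.53 and 3.16, and 16828 bp past the Errfi1 start 3.93 and 3.65. Around Mt1 and Mt2 it lay at -5193 bp from the Mt2 start, with 2.00 and 3.11. The weakest of these were in introns of Klf9 (1.78 and 2.05) and Sgk1 (1.39 and 1.73), next to their promoters.

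The Zbtb16 region and a downstream Tsc22d3 region are shown in full, on the plus strand with the GRE match in capitals, because they hold a GRE and had less signal in pool 2.
Zbtb16, chr9:48737561-48737800: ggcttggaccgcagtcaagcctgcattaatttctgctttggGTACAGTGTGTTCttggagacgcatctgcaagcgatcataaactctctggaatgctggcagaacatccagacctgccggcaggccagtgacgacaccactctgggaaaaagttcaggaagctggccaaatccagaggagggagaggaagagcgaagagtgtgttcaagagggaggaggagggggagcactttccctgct
Tsc22d3, chrX:140513441-140513680: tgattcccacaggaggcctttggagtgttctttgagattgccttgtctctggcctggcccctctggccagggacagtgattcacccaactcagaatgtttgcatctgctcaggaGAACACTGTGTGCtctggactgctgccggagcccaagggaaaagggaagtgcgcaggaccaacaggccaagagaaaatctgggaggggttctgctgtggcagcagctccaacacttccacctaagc

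Regions with a GRE were found near 7 of the 9 genes, where 9.39% of protein-coding genes had at least 1 such region in a window made the same way. These 2 shares are not matched for the number of regions in a window. The windows of the 9 genes held 11 to 28 shared regions, against a median of 9 over all protein-coding genes. Fkbp5 and Zbtb16 had 4 each, a number reached by 5 of 21911 genes, among them a record (Gm20388) whose window held 418 regions. Tsc22d3 and Dusp1 had 2 each and Klf9 had 1. Mt1 and Mt2 share their 2. Sgk1 and Errfi1 had none by this pattern, although 4 and 6 of their regions held the shorter core, ACA and TGT with 3 bases between. Among the 112 regions over 1 kb from every TSS, 8.04% held a GRE, against 1.53% of all such regions. Regions of the windows were slightly wider than average, with a median of 260 bp against 240. At the same widths, 1.36% of all shared regions held a GRE, so the share around the 9 genes was 6.91 times higher. The excess depended on the pattern. Counting the full palindrome with up to 2 mismatches gave 8.13% against 2.82% at the same widths, a ratio of 2.88. The core alone gave 23.8% against 8.89% at the same widths, a ratio of 2.67.

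The more frequent other motifs lay closer to their share over all regions. AP-1 sites (TGANTCA), which Fos and Jun dimers bind, were in 42 regions (26.3%, against 23.3% at the same widths). Metal response elements (TGCACNC or TGCGCNC) were in 38 (23.8%, against 21.9%), and NR5A1 sites (CAAGGTCA), bound by the steroidogenic factor of the cortex, in 12 (7.5%, against 6.78%). The cAMP response element (TGACGTCA) was in 3 (1.88%, against 1.21%) and the NFI site (TTGGC and GCCAA with 5 bases between) in 1 (0.625%, against 0.112%). All were sought on both strands. Each GRE match contains the shorter core.

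**Figure D3:**
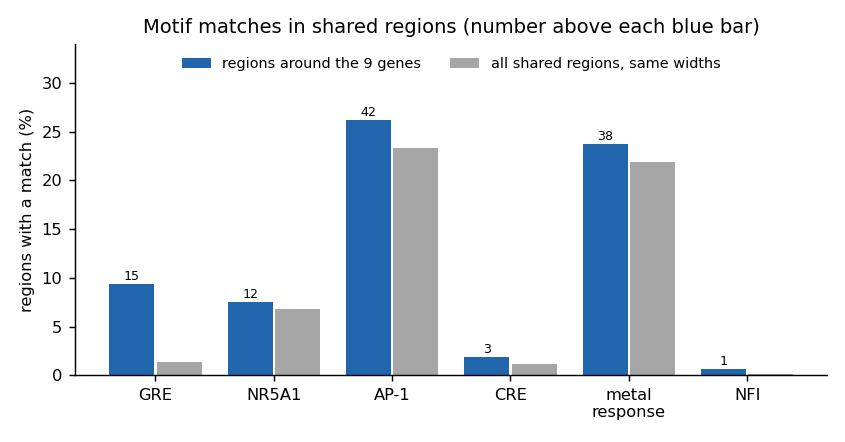
Share of shared regions with at least 1 match to each motif (vertical axis, percent), for the 160 regions around the 9 genes (blue, with the number of regions above the bar) and for all shared regions at the same widths (grey). The GRE bars differ by 6.91 times, while those of AP-1, NR5A1 and the metal response element differ by at most 1.13 times. Those of the rarer motifs differ by 1.55 times (CRE, the cAMP response element, 3 regions) and 5.58 times (NFI, 1 region).

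A list of 20 other targets of the receptor and 8 genes of receptors, chaperones and hormone-converting enzymes was counted in the same way. Of the 20 targets, 17 had a promoter peak in both pools. Tat and Pck1, enzymes of amino acid breakdown and gluconeogenesis in liver, and Lcn2, an acute-phase gene, did not, and Per1, a clock gene, had the strongest promoter of the list with 15.9 and 17.4. Near these targets 13 of 298 shared regions (4.36%) held a GRE, and 8 of the 20 genes had such a region, with 3 at Per1 and 2 each at Ddit4, Klf15 and Cdkn1a. Of the 8 receptor, chaperone and enzyme genes, all had a promoter peak in both pools, and 1 of 115 regions (0.870%) held a GRE.

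The signal of shared regions in pool 2 relative to pool 1 was lower around the 9 genes than over the genome. After subtraction of the genome median, the log2 ratio had a median of -0.12 over the 160 regions, and 103 of them (64.4%) were below 0, where the subtraction puts as many regions of the genome below 0 as above. At a 1.5-fold difference, 22 (13.8%) were lower in pool 2, against 6.68% of all shared regions, and 0 were higher, against 4.41%. The SD of this ratio over all shared regions was 0.37, which is a spread over regions and not an error of 1 value. By window, the median was lowest at Zbtb16 (-0.36), followed by Errfi1 (-0.26), Fkbp5 (-0.18) and Tsc22d3 (-0.17). It was -0.09 at Dusp1, -0.05 at Klf9 and -0.01 at Sgk1, and above 0 at Mt1 (0.03) and Mt2 (0.04). Of the 138 regions left without Zbtb16, 61.6% were below 0, with a median of -0.08. The windows of the 20 other targets had a median of -0.04. Those of cortex markers had -0.09 (110 regions), of medulla markers 0.01 (47 regions) and of endothelium markers -0.24 (40 regions). The medians were 0.13 for macrophage (15 regions), 0.05 for kidney (34 regions), 0.03 for adipocyte (35 regions) and 0.03 for hepatocyte markers (23 regions). The part of cell composition in the ratios was not tested. Regions around the 9 genes also had more signal than most, with a median over pools of 1.45 against 0.925. In classes of regions by mean signal the median ratio without a GRE ran from -0.24 in the weakest to 0.07, and it was 0.00 in the strongest.

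**Figure D4:**
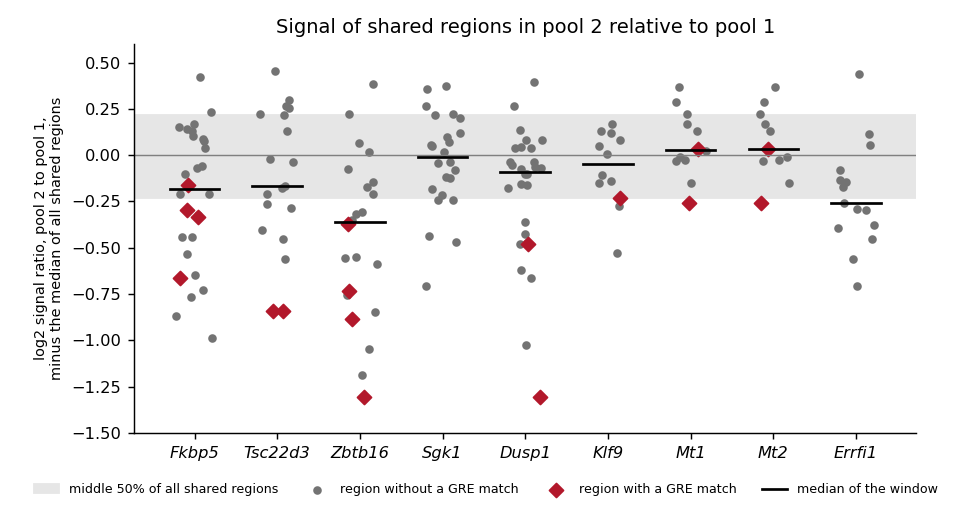
Log2 ratio of the authors' signal in pool 2 to pool 1, minus the median of all shared regions (vertical axis), for each region in the window of each gene. Red diamonds hold a GRE match, grey dots do not, black bars are window medians and the grey band spans the middle 50% of all shared regions. The lowest diamonds are at -1.31 (Zbtb16) and -1.30 (Dusp1), and the 1 diamond above 0, drawn at both Mt1 and Mt2, is at 0.04.

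Regions with a GRE had the lower ratios. Their median was -0.48 (15 regions) against -0.08 for the 145 regions without one, and 14 of the 15 were below 0. Over the genome the same order was seen, with -0.37 for 1235 regions with a GRE, of which 81.9% were below 0, against 0.00 for the rest. A decrease of at least 1.5-fold was found in 7 of the 15 and in 29.6% of the 1235. Both sets come from the same pair of libraries. The 1220 regions with a GRE outside the windows had a median of -0.37. Without Zbtb16, the 11 GRE regions left in the windows had a median of -0.33, with 4 lower by at least 1.5-fold.

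In Zbtb16, 4 intronic regions near the middle of the gene held a GRE, and all had less signal in pool 2 even before the genome median was subtracted. Values were 8.34 and 6.39 at 48737561 to 48737800, 6.82 and 6.72 at 48740201 to 48740420, 5.40 and 3.73 at 48723641 to 48723960, and 1.91 and 0.983 at 48736401 to 48736680. Their centred ratios were -0.74, -0.37, -0.88 and -1.31. Among regions of the same signal class (10 equal classes of all shared regions by mean signal), 0.166%, 1.89%, 0.0518% and 0.0518% were as low or lower. The region at 48740201 held 2 overlapping matches. Next to them, at 48729541 to 48729840, a region with the shorter core but no GRE match went from 3.37 to 1.89 (ratio -1.19), while the Zbtb16 promoter had -0.07.

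The Tsc22d3 regions with a GRE lie downstream of the gene, between genes, 37186 and 29626 bp past the nearest start. They had 1.65 and 1.18 at 140505861 to 140506140, and 1.32 and 0.935 at 140513441 to 140513680, both with a centred ratio of -0.84. The strongest region downstream, at 140520281 to 140520500, held no GRE and had a ratio of -0.04. The promoter region of the outermost Tsc22d3 start, at 140600801 to 140601040, had the highest ratio of all 160 regions, 0.45.

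At Dusp1 the region at 26535221 to 26535610, inside an intron of the long transcript alone, went from 0.914 in pool 1 to 0.472 in pool 2 (ratio -1.30). It was not shared in the shorter peak lists, and it held a GRE that lay in a footprint of both pools, the only match of the 16 with this property. The region in Ergic1 at 26592541 to 26592840 had 3.09 and 2.82 (-0.48). The strongest region of the window outside promoters, with 6.55 and 6.00, held the shorter core but no GRE match and had a ratio of -0.48 as well.

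At Fkbp5 the intronic region with the exact palindrome, 28420201 to 28420660, had 2.10 and 1.69 (-0.66). The 3 others lie within 1 kb of a TSS and had smaller shifts. They were -0.33 at 28523161 to 28523380 (3.43 and 3.47), next to the start of Gm20109, -0.30 at 28484881 to 28485560 (0.825 and 0.855) and -0.16 at 28518021 to 28518280 (3.10 and 3.53). The lowest ratios of the Fkbp5 window were at regions without a GRE, with -0.99 at 28515901 to 28516260 (3.63 and 2.33) and -0.87 at 28512701 to 28513000 (4.53 and 3.16). The first of these held an NR5A1 site. The highest was 0.42, at 28485561 to 28485860 beside the main promoter (0.706 and 1.21). The 12 regions of the windows with an NR5A1 site had a median ratio of -0.40, against -0.06 for all shared regions with that site. They lacked a GRE, as did most of the 160 regions (9.38% held one).

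At Klf9 the region with a GRE, at -6195 bp and within 1 kb of the start of 2410080I02Rik, had 4.30 and 4.67 (-0.23). The Mt1 promoter region at 94178961 to 94179260 had 5.03 and 6.57 (0.04), and the region at -1063 bp from the Mt2 start had 1.36 and 1.45 (-0.26). At Errfi1, which had no GRE match, 12 of 15 regions were below 0. Its regions past the gene end at 150871721 to 150872080 (3.93 and 3.65) and 150872141 to 150872737 (1.52 and 1.18) had -0.46 and -0.71 and each held the shorter core, whereas the promoter had 0.44. Sgk1 had regions on both sides of 0, 12 of 24 below. The strongest regions outside promoters at Sgk1, Klf9 and the metallothioneins had ratios of -0.04, -0.14 and 0.29.

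**Figure D5:**
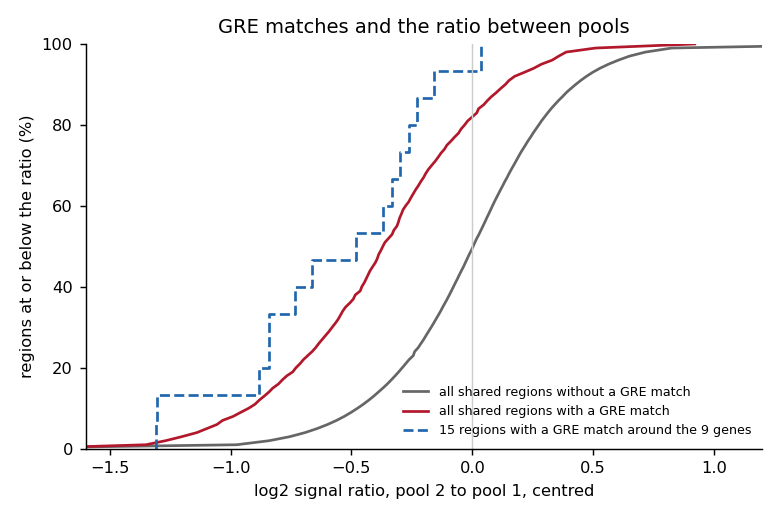
Share of regions (vertical axis, percent) at or below each centred log2 ratio of pool 2 to pool 1 (horizontal axis), for all shared regions without a GRE match (grey), all with one (red) and the 15 around the 9 genes (dashed blue). The medians are 0.00, -0.37 and -0.48, and 14 of the 15 lie left of 0.

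The lower ratio of GRE regions was present at every level of signal. In each of 10 classes by mean signal, GRE regions of the genome were lower than the others, by 0.29 to 0.47 on the log2 scale. By GC content the gap ran from 0.43 down to 0.01, the smallest value being in the class with the most GC, which held 34 GRE regions. GRE regions of the windows had a median GC content of 54.6% against 52.3% for the others, and those at 28518021, near an Fkbp5 start, and at 28523161, near the Gm20109 start, had 72.3% and 73.2%. Regions without a GRE but under 5 kb from a region with one had a median ratio of -0.03 over the genome (1324 regions) and -0.16 in the windows (22 regions). Peaks found in pool 1 alone held a GRE in 1.31% of 18072 cases and those in pool 2 alone in 0.332% of 47012.

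Among peaks of 1 pool in the windows, 1 of each pool held a GRE, and both lay at promoters. In pool 1 the peak was at Sgk1, at 21993544 to 21993780, at -228 bp from a start, with a signal of 1.06 and a footprint over the site. Its sequence is the Sgk1 site printed above, with the exact palindrome. In pool 2 it was at Dusp1, at 26509461 to 26509540, at -982 bp from a start, with a signal of 1.14 and a footprint of pool 2 over the site. With peaks of pool 1 included, Sgk1 thus had an open region with a GRE too, and Errfi1 still had none. The share of all protein-coding genes with such a region by this wider rule was not counted.

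Few GRE matches were marked by footprints. Of the 16 in shared regions of the windows, 5 overlapped a footprint in pool 1 and 3 in pool 2. Of all 1246 in shared regions, 23.1% and 22.1% did, and 10.2% did in both pools. In Zbtb16 the matches at 48737602 and 48736508 overlapped a footprint of pool 1 alone, and that at 48740264 of pool 2 alone.

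Mt1 and Mt2 are induced by zinc and cadmium through metal response elements as well as by glucocorticoids. The promoter region of each held 5 matches to that element, a number reached by 0.153% of all shared regions. Another region of both windows, at 94183221 to 94183480 and within 1 kb of the Gm39228 start, held 7. Of the 5 in the Mt1 promoter region, 2 lay in a footprint in pool 1 and 0 in pool 2, while for Mt2 it was 1 and 3. The following elements of these promoter regions, in capitals on the plus strand, overlapped a footprint in at least 1 pool.
Mt1, chr8:94179109-94179115: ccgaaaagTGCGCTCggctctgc
Mt1, chr8:94179187-94179193: aaacccttTGCGCCCggactcgt
Mt2, chr8:94172622-94172628: ttcgggtcGTGCGCAggcccagg
Mt2, chr8:94172676-94172682: aaaagggcGTGTGCAggcggcgg
Mt2, chr8:94172695-94172701: gcgggggcGCGTGCAtggtgcct
The element at 94172676 was the only one of the 10 in a footprint of both pools. The centred ratio of the Mt2 promoter region was 0.17.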

How the data were processed

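For each pool 2 peak lists, a footprint list and a table of FDR values were used, all on mm10 per the labels. Per the readme texts deposited with them, the authors called them from the filtered alignments of each library, so per pool. The aligner, peak and footprint callers and their thresholds are not stated in the labels or readme texts. The peak signal is the authors' deposited signal, whose scaling is not stated. The deposited FDR, an adjusted p-value of the cleavage rate, is listed under 0.05. Every deposited footprint carries the constant 0.01, so only positions were used.

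The longer list of each pool was used. Peaks overlapping by at least 1 bp were merged. Sequence came from the GRCm38.p6 FASTA of RefSeq, read with pysam 0.24.0 under Python 3.11.15. bedtools 2.31.1 intersected FDR intervals. Merging, ratios and motif search were tested on simulated data. Regions are named as the strongest outside promoters per gene, all with a GRE, and the 3 highest and 3 lowest ratios; others were chosen after their values were seen. Genes, lists and motifs were chosen with earlier results of these data known.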

Additional observations from a re-analysis of the deposited data

How the results depend on the processing

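Of 93 values recomputed with another choice, 87 stayed within 1.5 times the value given and 6 moved further. Only median log2 ratios could change sign (17 values for all regions of the windows, 19 for those with a GRE), and 0 did. The other values were counts, shares or densities, which cannot be negative. Footprints counted in 1 pool alone, without the other replicate, numbered 536 to 645 against 281 shared ones, since no overlap was then asked for. With the shorter core (ACA and TGT with 3 bases between), 38 regions (23.8%) held a match and their median centred ratio was -0.31. The median ratio of GRE regions was -0.74 without Fkbp5 and -0.33 without Zbtb16, choices made after seeing the data. Over all alternatives this median ranged from -0.74 to -0.31. All 9 promoters had a peak in each alternative run, in both pools or in the 1 pool that the run used. With 1 pool alone, the windows held 180 to 236 regions, 14 to 17 with a GRE (7.20% to 7.78%). No paired analysis was possible because there is 1 group. The precision of single ratios is unknown, as each pool is 1 library of unstated depth.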
